A study of Mus musculus with 6 samples.

Results

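Ribosome biogenesis genes were examined in mouse mammary tumour cells recovered from lung metastases. The set held 37 genes chosen by name for work in the nucleolus or in growth metabolism, out of 18193 genes with a probe set of their own symbol on the array. A gene with several probe sets was read by the one that was brightest on average, and all 37 genes passed the filter on dim genes. The cells were MVT1, a metastatic mouse mammary tumour line carrying green fluorescent protein (GFP), of which 3000000 were injected into a vein of FVB/N mice. GFP-positive cells sorted from the lungs were hybridised to Affymetrix Mouse Genome arrays, with 2 arrays in each of 3 groups. Vehicle mice were sampled 1 week and 2 weeks after injection, and mice given GW2580 were sampled at 2 weeks. GW2580 inhibits the kinase of CSF1R, the receptor through which CSF1 sustains macrophages, and was dosed daily at 160 mg per kg. Gavage with GW2580 or vehicle began 1 week after injection, so between the vehicle groups gavage and time cannot be told apart. All groups share the strain, the tumour line and the route of injection. The vehicle arrays stand for 2 mice a group, while the number of mice per GW2580 array is not stated, so p-values measure the spread between these arrays, which may in part be technical.

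Ribosomes are built in the nucleolus. RNA polymerase I transcribes the ribosomal RNA precursor, small nucleolar ribonucleoproteins (snoRNPs) guide its chemical modification, and separate sets of assembly factors fold and cut it into the small and the large subunit. Growing cells spend much of their energy on this pathway, and many of its genes are known targets of the transcription factor MYC, which binds the E-box CACGTG. Odc1, Srm and Cad in the set are not ribosome assembly factors; they encode enzymes of polyamine and pyrimidine synthesis that are also known MYC targets.

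The E-box was looked for in promoter windows of RefSeq (build GRCm38.p6) that run from 250 bases before to 50 bases after the gene start. The motif CACGTG reads the same on both strands. Of the 37 genes, 31 had a window in the table (all but Bop1, Fbl, Npm1, Rrp12, Rrs1 and Srm), and 8 of these 31 genes (25.8%) held the motif, against 11.3% of 10510 tested genes with a window. By window, 8 of 38 (21.1%) held it, against 9.51% of the tested genes' windows and 7.15% of all windows in the table. Of the other ribosome biogenesis factors listed below, 19 of 109 genes (17.4%) and 22 of 123 windows (17.9%) held it. Rrn3, which encodes an initiation factor of RNA polymerase I, was the only member with 2 matches. The 250 bases before its start at chr16:13780449-13780698, plus strand, are shown because they hold both, in capitals.
Rrn3: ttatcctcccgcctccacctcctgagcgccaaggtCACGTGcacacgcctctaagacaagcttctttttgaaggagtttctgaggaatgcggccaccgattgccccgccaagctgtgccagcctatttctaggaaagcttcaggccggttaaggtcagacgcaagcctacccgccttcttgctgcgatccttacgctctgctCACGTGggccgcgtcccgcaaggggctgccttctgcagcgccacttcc

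Of the other 7 members with the motif, Imp4 and Nop2 held it before the start, at 121 and 60 bases. The other 5 (Mybbp1a, Pes1, Tsr1, Utp20 and Wdr43) held it within the first 50 bases after the start. Stretches of up to 30 bases are shown for 6 of these 7 to compare the bases beside the motif, which is in capitals.
Imp4 (chr1:34439696-34439725, plus strand): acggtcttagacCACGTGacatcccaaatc
Nop2 (chr6:125131811-125131840, plus strand): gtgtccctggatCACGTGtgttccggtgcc
Pes1 (chr11:3963965-3963994, plus strand): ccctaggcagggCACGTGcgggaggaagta
Tsr1 (chr11:74898092-74898121, plus strand): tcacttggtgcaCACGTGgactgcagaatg
Utp20 (chr10:88826765-88826789, minus strand): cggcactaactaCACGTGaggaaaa
Wdr43 (chr17:71616220-71616249, plus strand): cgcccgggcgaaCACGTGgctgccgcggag
A match is a description of these windows, and no binding was measured. Among these members the differences described below ranged widely. Between GW2580 and vehicle at 2 weeks they were -0.63 log2 units for Pes1, -0.48 for Utp20, -0.42 for Rrn3 and -0.40 for Mybbp1a. They were -0.20 for Wdr43, -0.18 for Tsr1, -0.07 for Nop2 and -0.01 for Imp4. Other probe sets gave 0.45 for Pes1, -0.44 for Mybbp1a, -0.51 for Wdr43, -0.26 for Tsr1, and -0.44 and -0.22 for Imp4.

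One array stood apart before any comparison. Here, in vehicle mice at 2 weeks (replicate 2), the 3' control probe set of beta-actin read 1.20 log2 units above the 5' one, against 0.38 to 0.50 on the other 5 arrays, and for Gapdh the gap was 0.92 against -0.13 to -0.10. Ribosome biogenesis genes also read highest there, so the main results are also given with that array left out, and the part of the wide gap in them was not tested. Among markers of the labelled epithelial tumour cells, Krt8 and Krt18 averaged 13.63 and 13.12 and Epcam 7.05, while Cdh1, Cldn4, Elf5 and Esrp1 were below the filter of 4.97. Of 15 macrophage and monocyte markers with a probe set, 14 were above the filter. Their summed linear signal was 3758 and 4236 at 1 week, 4716 and 5431 in vehicle mice at 2 weeks, and 3656 and 5558 with GW2580. The 11 fibroblast and smooth muscle markers summed to 6857 and 3012 at 1 week, 1807 and 1926 in vehicle mice at 2 weeks, and 4073 and 1464 with GW2580. The 6 neutrophil markers with a probe set, 5 of them above the filter, summed to 447.7 and 629.1, then 1030 and 1652, then 332.8 and 1111. These sums were highest and lowest on the same arrays as the ribosome biogenesis genes. After subtraction of each gene's mean, the median of the 5 above the filter was also lowest on replicate 1 of the GW2580 group (-0.145). It was highest on replicate 2 of that group (0.235), and -0.002 on replicate 2 of the 2-week vehicle group. For the 12 lung epithelium markers the sums were 4475 and 2747, 2688 and 2280, and 3652 and 1386. Those of the 10 endothelium markers were 942.8 and 786.6, 699.8 and 515.9, and 1039 and 890.2. They were highest on replicate 1 of the GW2580 group and lowest on replicate 2 of the 2-week vehicle group, opposite to the neutrophil sums. For 9 lymphocyte and NK cell markers they were 535.6 and 523.7, 469.1 and 473.1, and 544.6 and 476.2. For 4 erythroid and platelet markers they were 229 and 251.7, 267.6 and 267.5, and 278.4 and 336.1. The part of such cells in the results was not tested, and in sorted bulk RNA fewer cells of a type and less RNA per cell cannot be told apart.

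The study compared GW2580 with vehicle at 2 weeks to ask how CSF1 receptor inhibition alters tumour cells in the lung. In this comparison 36 of the 37 ribosome biogenesis genes read lower with GW2580, against 58.3% of the 13090 genes tested, and the median difference was -0.35 log2 units, against -0.05 over all genes. None passed an adjusted p of 0.05 with limma, where 0.367% of all genes did; the smallest adjusted p was 0.0806, for Gnl3. At an unadjusted p under 0.05 there were 16 members, all lower, against 12.6% of all genes lower and 18.0% in either direction. The GW2580 and vehicle arrays did not overlap for 23 members (62.2%), all lower, against 31.5% of all genes lower and 18.3% higher. The sizes were modest: 20 members differed by -0.3 or more in size and 4 (Nhp2, Pes1, Gnl3 and Wdr12) by more than 0.5. Rrp9 was the exception in sign, at 0.01. With arrays set to a common 75th percentile 32 of 37 were lower (median -0.32), and with the probe sets of a gene averaged 33 were (median -0.26).

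The size of this difference depended on which arrays were compared. With replicate 2 of the 2-week vehicle group left out, 32 of 37 members were lower (55.0% of all genes), the median was -0.22 and 5 members had an unadjusted p under 0.05 (13.5%, close to the 11.6% of all genes in the same fit). Without replicate 1 of the GW2580 group 31 were lower (53.9% of all genes), with a median of -0.20 and 9 such members (24.3%, against 12.2% of all genes). Without replicate 2 of the GW2580 group 34 were lower (60.6% of all genes), the median was -0.39, and Nhp2 and Pes1 passed, with limma adjusted p of 0.0429 and 0.0483. That fit called 167 of the 13090 genes, against 48 with all arrays. Leaving out the other 2-week vehicle array, replicate 1, gave 35 lower (60.8% of all genes), with a median of -0.41.

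**Figure D1:**
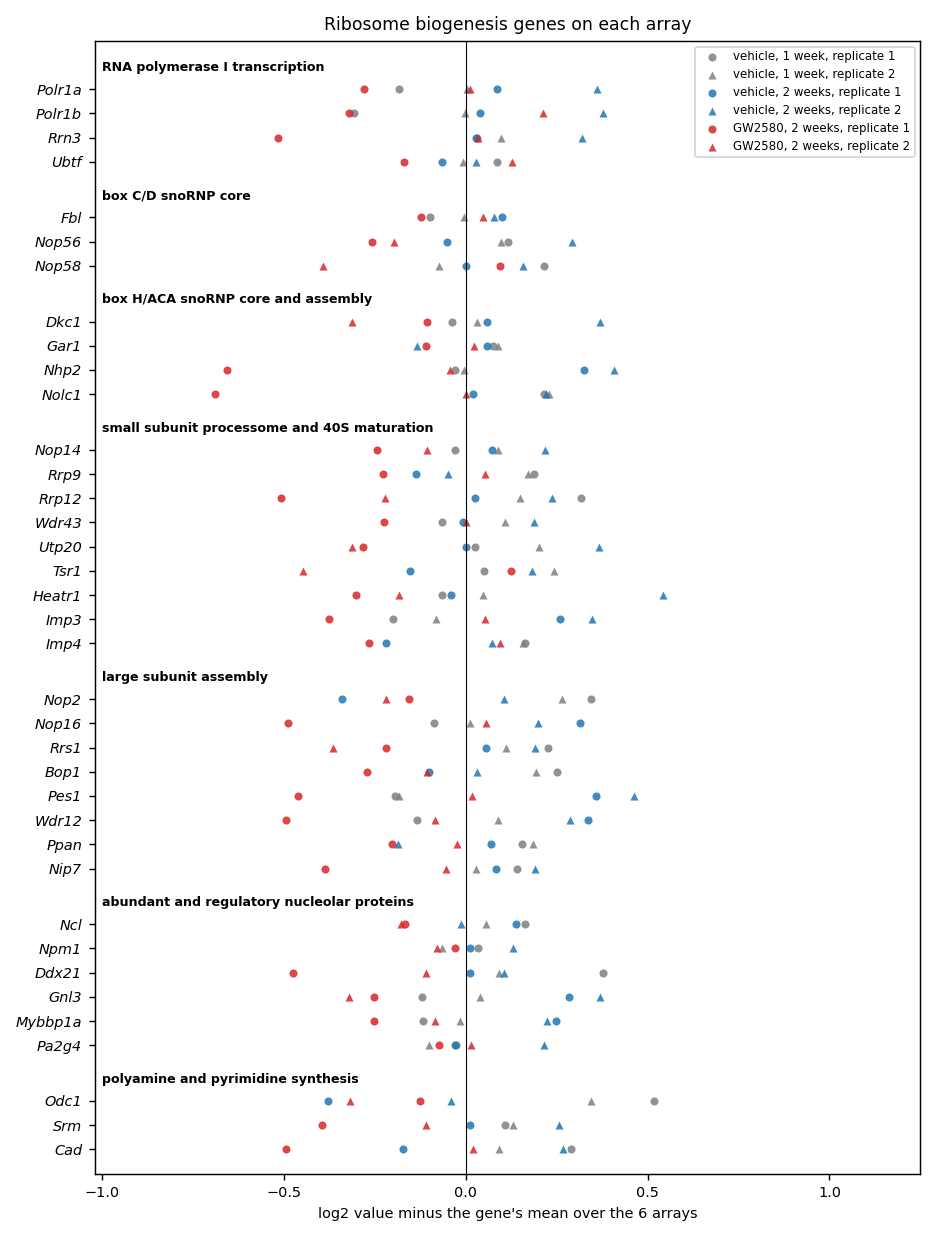
Each of the 37 ribosome biogenesis genes on each array: the x axis is the RMA log2 value minus the gene's mean over the 6 arrays, colour gives the group and symbol the replicate, and genes are grouped by role. Replicate 1 of the GW2580 group (red circles) was the lowest of the 6 arrays for 25 genes and replicate 2 of the 2-week vehicle group (blue triangles) the highest for 17.

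Arrays within a group also differed. After subtraction of each gene's mean, the median member stood at 0.05 and 0.09 log2 units at 1 week, at 0.03 and 0.22 in vehicle mice at 2 weeks, and at -0.26 and -0.08 with GW2580. Both GW2580 arrays lay below the other 4, and differed from each other. Replicate 1 of the GW2580 group was the lowest array for 25 of 37 members, where 26.4% of all genes had their lowest value. Replicate 2 of the 2-week vehicle group was the highest for 17 members, where 22% of all genes had their highest. Replicate 2 read above replicate 1 for 27 members with GW2580, for 30 in vehicle mice at 2 weeks and for 21 at 1 week. Over 666 pairs of members the median correlation across the 6 arrays was 0.54, and 583 pairs were above 0. No such value was computed for all genes, so whether members varied together more than other genes did was not tested. These arrays share their groups and their joint normalisation, so counts of members are not counts of independent results. Against the median of the other members, Srm followed most closely (r = 0.99 over 6 arrays) and Gar1 least (r = 0.13).

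**Figure D2:**
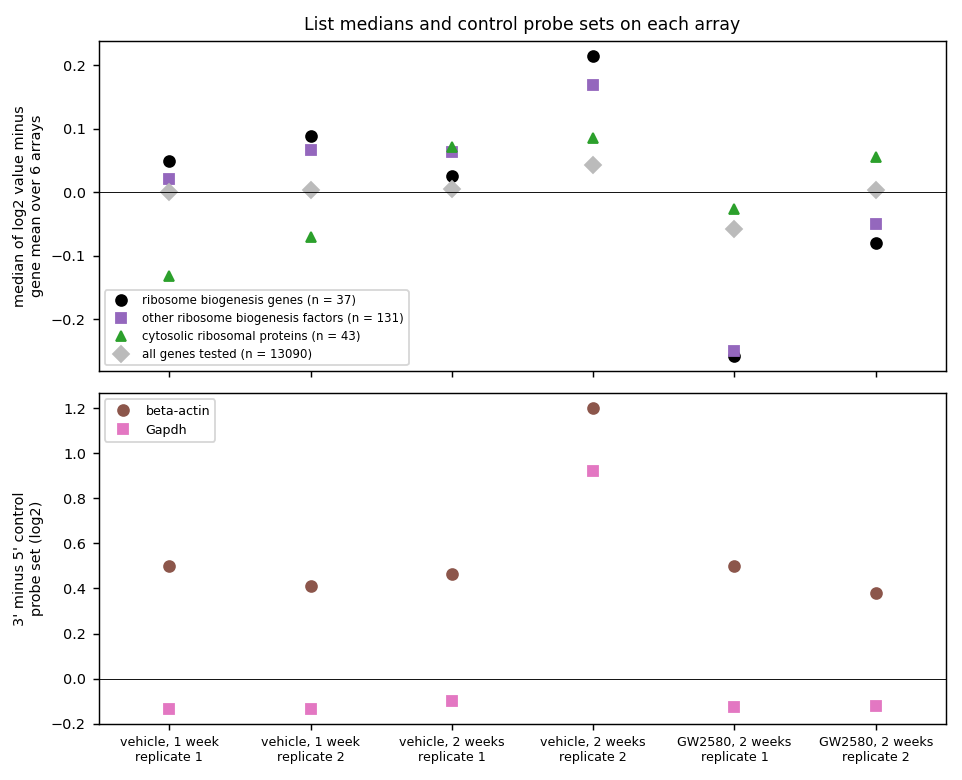
Top, the median over genes of the log2 value minus each gene's mean over the 6 arrays, for ribosome biogenesis genes (37), other biogenesis factors (131), cytosolic ribosomal proteins (43) and all genes tested (13090). Bottom, the log2 difference between 3' and 5' control probe sets of beta-actin and Gapdh. The ribosome biogenesis median ran from -0.26 with GW2580 (replicate 1) to 0.22 in vehicle mice at 2 weeks (replicate 2), where the 3' to 5' gap was widest.

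Between 1 and 2 weeks in vehicle mice, the comparison of early with later metastases, the set was divided. Of the 37 members 22 read higher and 15 lower at 2 weeks, with a median difference of 0.05 against 0.02 over all genes, of which 52.9% were higher and 47.1% lower. At a common 75th percentile the numbers were 19 and 18, and leaving out replicate 2 of the 2-week vehicle group gave 15 and 22, with a median of -0.03. With replicate 1 of that group left out instead, 10 members were lower and the median was 0.14. None passed an adjusted p of 0.05 with limma, where 6.45% of all genes did (3.74% higher, 2.71% lower). At an unadjusted p under 0.05 there were 6 members (16.2%, against 23.6% of all genes): 4 higher, where 14.1% of all genes were, and 2 lower, where 9.45% were. These were Pes1, Gnl3, Imp3 and Mybbp1a higher, and Odc1 and Nop2 lower. The smallest adjusted p values were 0.0535 for Odc1 and 0.0761 for Pes1. The arrays did not overlap for 11 members higher (29.7%, against 31.5% of all genes) and 7 lower (18.9%, against 25.2%).

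GW2580 at 2 weeks was also set against vehicle at 1 week, which shares the GW2580 arrays with the inhibitor comparison. The groups compared differ in drug, gavage and time after injection at once, which cannot be told apart. Here 34 of 37 members were lower (54.2% of all genes were, and 45.8% were higher), with a median of -0.27 against -0.02. None passed with limma, where 0.512% of all genes did, and 9 had an unadjusted p under 0.05, all lower (24.3%, against 10.4% of all genes lower and 17.0% in either direction). The arrays did not overlap for 22 members lower (59.5%, against 27.9% of all genes lower and 18.8% higher). Ubtf and Pes1 differed by -0.06 and -0.03, and the 3 members above 0 were Polr1b at 0.10, Pa2g4 at 0.03 and Fbl at 0.01. Without replicate 1 of the GW2580 group 29 of 37 were lower, against 49.4% of all genes, and the median was -0.14. In that fit the share of members at an unadjusted p under 0.05 was no longer above that of all genes.

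**Figure D3:**
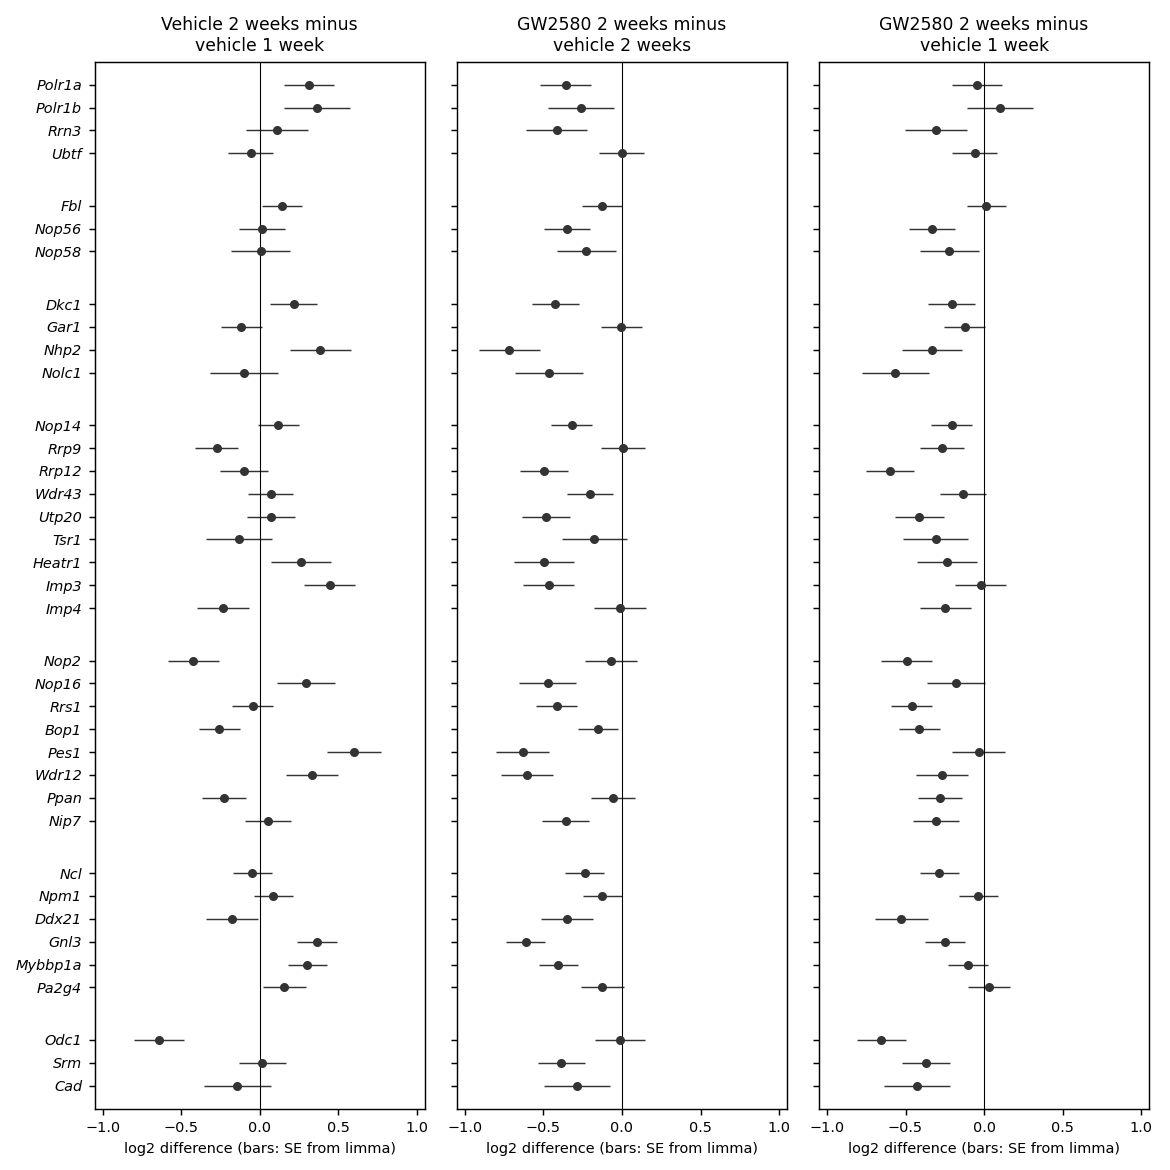
Log2 differences of the 37 ribosome biogenesis genes in the 3 comparisons, in the order of roles used in the text, with standard errors from limma as bars. Points spread to both sides of 0 from 1 to 2 weeks (22 higher, 15 lower) and lie below 0 for 36 of 37 genes between GW2580 and vehicle at 2 weeks.

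Of the RNA polymerase I genes, Polr1a and Polr1b encode the largest subunits of the enzyme. Polr1a read 9.57 and 9.76 at 1 week, 9.84 and 10.12 in vehicle mice at 2 weeks, and 9.48 and 9.77 with GW2580. The 2-week vehicle arrays were the highest pair and did not overlap either of the other groups. The differences were 0.31 (SE 0.16) from 1 to 2 weeks and -0.36 (SE 0.16) with GW2580, with limma adjusted p of 0.291 and 0.292. Its 2 other probe sets above the filter differed by 0.11 and 0.05 with GW2580, against the direction of the one used. Polr1b read 8.86 and 9.17, then 9.21 and 9.55, then 8.85 and 9.38, so the GW2580 arrays differed widely and overlapped both vehicle groups. Rrn3 differed by -0.42 (SE 0.20) with GW2580, where replicate 1 read 7.54 and replicate 2, at 8.08, lay beside the 1-week arrays. Ubtf, which encodes a factor bound along ribosomal DNA, ranged from 9.78 to 10.08 over the 6 arrays, with differences of -0.06 and 0.00. Its other probe set, at a mean of 8.51, differed by -0.47 and 0.49 (SE 0.33). On that probe set replicate 2 of the 2-week vehicle group read 7.59 and the other arrays 8.58 to 8.79.

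The box C/D snoRNPs add methyl groups to ribosomal RNA. Fbl, which encodes their methyltransferase fibrillarin, kept within a narrow range: 11.78 and 11.88 at 1 week, 11.98 and 11.96 in vehicle mice at 2 weeks, and 11.76 and 11.93 with GW2580. Its differences were 0.14 and -0.13 (SE 0.13). Nop56, a core protein of the particle, read 11.60 and 11.58, then 11.43 and 11.77, then 11.22 and 11.28. Both GW2580 arrays were below the other 4, with a difference from 2-week vehicle of -0.35 (SE 0.15, limma adjusted p 0.264) and from 1-week vehicle of -0.33. Its other probe set differed by -0.18 and -0.31. Nop58, the partner of Nop56, differed by 0.01 and -0.23, and its GW2580 arrays, at 10.80 and 10.31, did not lie together.

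The box H/ACA snoRNPs turn uridine into pseudouridine. Nhp2, which encodes a core protein, had the largest difference of any member with GW2580. It read 11.66 and 11.68 at 1 week, 12.01 and 12.09 in vehicle mice at 2 weeks, and 11.03 and 11.65 with GW2580. The vehicle arrays were apart from both other groups, while the GW2580 arrays differed widely from each other. The difference of -0.72 (SE 0.19), a level 1.64 times lower, did not pass (limma adjusted p 0.129), and its other probe set differed by -0.67. Dkc1, for the pseudouridine synthase dyskerin, differed by -0.42 with GW2580 (-0.41 and -0.27 on its other probe sets) and Nolc1, for a chaperone of snoRNPs, by -0.46 (-0.55 and -0.28). Gar1, for another core protein, differed by -0.01. From 1 to 2 weeks these 4 genes lay between -0.12 (Gar1) and 0.38 (Nhp2).

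The small subunit group held 9 genes, 8 of which were lower with GW2580 (median -0.32). Rrp12, for a factor in export of the small subunit precursor, read 7.59 and 7.42 at 1 week, 7.29 and 7.50 in vehicle mice at 2 weeks, and 6.76 and 7.05 with GW2580. Both GW2580 arrays were the lowest of the 6. The differences were -0.50 from 2-week vehicle and -0.60 from 1-week vehicle (SE 0.15), with limma adjusted p of 0.156 and 0.109. Imp3, which encodes a protein of the U3 snoRNP, had the smallest p of the group from 1 to 2 weeks. It read 10.64 and 10.76, then 11.10 and 11.19, then 10.46 and 10.89, with differences of 0.44 and -0.46 (SE 0.16) and limma adjusted p of 0.149 and 0.199. Its partner Imp4 went otherwise, at -0.23 and -0.01 on the probe set used, while its 2 dimmer probe sets differed by 0.27 and 0.22, then by -0.44 and -0.22.

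Heatr1, for a large scaffold of the early processome, read 8.75 and 8.86 at 1 week, 8.78 and 9.36 in vehicle mice at 2 weeks, and 8.51 and 8.63 with GW2580. Replicate 2 of the 2-week vehicle group stood above the other 5 arrays, and the difference with GW2580 was -0.49 (SE 0.19, limma adjusted p 0.231). A dim probe set of the same gene, at a mean of 5.22, differed by 0.37 in the same comparison and another by -0.03. Utp20, Nop14, Wdr43 and Tsr1, all processome or late small subunit factors, differed by -0.48, -0.32, -0.20 and -0.18 with GW2580. From 1 to 2 weeks the same 4 genes lay between -0.13 and 0.12. The other probe set of Wdr43 differed by 0.33 in time and -0.51 with GW2580, and that of Tsr1 by -0.23 and -0.26. Rrp9, a U3 snoRNP protein gene, read lower at 2 weeks by 0.27 (SE 0.14) without overlap and level with GW2580.

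In the large subunit group, Pes1, Bop1 and Wdr12 encode the 3 proteins of the PeBoW complex, which is needed to process the large subunit RNA. Pes1 read 9.68 and 9.70 at 1 week, 10.24 and 10.34 in vehicle mice at 2 weeks, and 9.42 and 9.89 with GW2580. The 2-week vehicle arrays did not overlap either of the other groups, and the differences were 0.60 and -0.63 (SE 0.17), with limma adjusted p of 0.0761 and 0.127. With only the 4 vehicle arrays fitted, the time difference passed (limma adjusted p 0.0340), in a fit that called 1059 of 13090 genes. The second probe set of Pes1, at a mean of 6.97, went the opposite way, by -0.60 and 0.45, so the direction for Pes1 rests on the probe set used.

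Wdr12 read 9.55 and 9.77 at 1 week, 10.02 and 9.97 in vehicle mice at 2 weeks, and 9.19 and 9.60 with GW2580. Its differences of 0.33 and -0.60 (SE 0.17, limma adjusted p 0.274 and 0.130) were matched by 0.56 and -0.58 on a second probe set. Bop1 went the other way from Wdr12 in the time comparison, and from Pes1 only on the Pes1 probe set used. It read 10.29 and 10.23, then 9.94 and 10.07, then 9.77 and 9.94, highest at 1 week. The Bop1 differences were -0.26 and -0.15 (SE 0.13), and -0.41 between GW2580 and 1-week vehicle (limma adjusted p 0.166).

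The other large subunit genes ranged from -0.47 to -0.05 with GW2580. Nip7 read 9.98 and 9.86 at 1 week, 9.92 and 10.03 in vehicle mice at 2 weeks, and 9.45 and 9.78 with GW2580, both GW2580 arrays being the lowest. It differed by -0.36 (SE 0.15, limma adjusted p 0.260), and by -0.31 from 1-week vehicle, where its other probe set differed by 0.38. Nop16 and Rrs1 differed by -0.47 and -0.42 with GW2580, and their other probe sets by -0.37 and -0.48. Nop2, an RNA methyltransferase gene, was lower at 2 weeks than at 1 week by 0.42 (SE 0.16, limma adjusted p 0.166) and differed by -0.07 with GW2580. Ppan differed by -0.23 and -0.05.

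**Figure D4:**
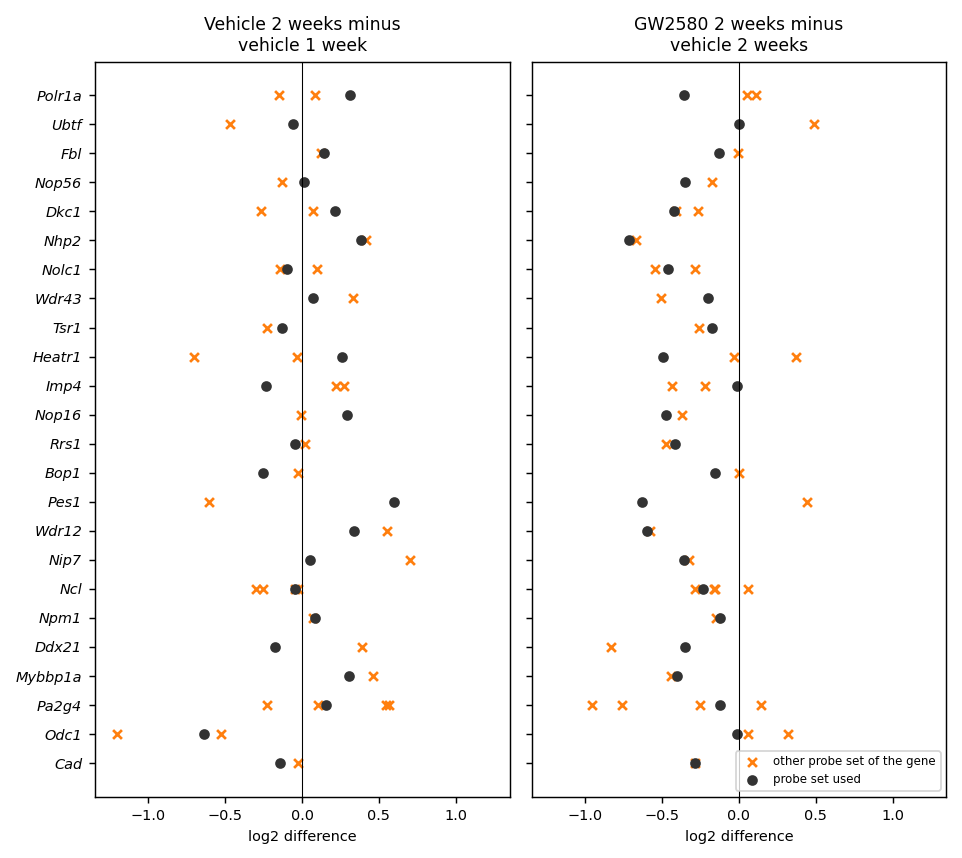
Log2 differences on every probe set above the filter for the 24 ribosome biogenesis genes with more than 1, from 1 to 2 weeks (left) and between GW2580 and vehicle (right); black circles are the probe sets used, orange crosses the others. Of 36 other probe sets 26 were below 0 with GW2580, and Pes1 had probe sets on opposite sides of 0 in both panels.

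Among the nucleolar proteins, Gnl3, which encodes the GTP-binding protein nucleostemin, had the smallest p of any member with GW2580. It read 10.89 and 11.04 at 1 week, 11.29 and 11.37 in vehicle mice at 2 weeks, and 10.75 and 10.68 with GW2580. All 3 groups were apart, with vehicle at 2 weeks highest and GW2580 lowest. The differences were 0.37 (limma adjusted p 0.128) and -0.61 (limma adjusted p 0.0806), with an SE of 0.13; the second, a level 1.53 times lower, passed with a trended and robust limma fit (adjusted p 0.0403). Mybbp1a, for a nucleolar regulator of transcription, differed by 0.30 and -0.40 (SE 0.13), and by 0.46 and -0.44 on its other probe set.

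Ncl and Npm1 encode nucleolin and nucleophosmin, abundant proteins of the nucleolus. Ncl read 13.08 and 12.98 at 1 week, 13.06 and 12.91 in vehicle mice at 2 weeks, and 12.75 and 12.74 with GW2580, both GW2580 arrays being the lowest. Its difference was -0.24 (SE 0.13, limma adjusted p 0.363), with -0.29 to 0.06 on its 4 other probe sets. Npm1 stayed within 13.44 to 13.65 on all arrays, with differences of 0.09 and -0.12 (SE 0.12). The helicase gene Ddx21 differed by -0.35 with GW2580 and by -0.83 on its other probe set.

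Pa2g4, for an ERBB3-binding protein, is named because its probe sets disagreed in size once their values were seen. The brightest differed by -0.12 with GW2580, and the other 4 by -0.95, -0.76, -0.25 and 0.14. With all probe sets tested the first of these had an adjusted p of 0.0584 with limma. Over the whole set, 36 other probe sets of 24 members were above the filter. With GW2580 26 of these 36 were below 0 (median -0.26), and 2, of Heatr1 and Pes1, opposed the one used with both sizes at least 0.3. From 1 to 2 weeks 19 were below 0 and 17 above. Other probe sets read the same RNA samples and add no replicates.

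Odc1, for ornithine decarboxylase, the first enzyme of polyamine synthesis, had a pattern of its own among the enzymes. It read 12.84 and 12.67 at 1 week, 11.94 and 12.28 in vehicle mice at 2 weeks, and 12.19 and 12.00 with GW2580. The 1-week arrays were above all 4 later arrays, and the 2-week groups overlapped. The time difference was -0.64 (SE 0.16), just outside the threshold with limma (adjusted p 0.0535). It passed under a stricter filter (adjusted p 0.0466), with probe sets averaged (-0.79, adjusted p 0.0427) and with a trended, robust fit (adjusted p 0.0213), all by limma. These fits called 858 of 9822, 739 of 12189 and 1011 of 13090 genes in time. On a second probe set of Odc1 the fall of 1.21 passed over all probe sets tested (limma adjusted p 0.0275), and one more differed by -0.53. Odc1 differed by -0.01 (SE 0.16) between GW2580 and 2-week vehicle, and by 0.32 and 0.06 on the other probe sets. Against 1-week vehicle, GW2580 was lower in Odc1 by 0.65 (SE 0.16, limma adjusted p 0.0991, or 0.0485 with the trended, robust fit).

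Srm, for spermidine synthase, behaved otherwise. It read 11.38 and 11.40 at 1 week, 11.29 and 11.53 in vehicle mice at 2 weeks, and 10.88 and 11.17 with GW2580, where both arrays were the lowest. Its differences were 0.02 and -0.39 (SE 0.15, limma adjusted p 0.970 and 0.233). Cad, for the enzyme that starts pyrimidine synthesis, differed by -0.14 and -0.28 (SE 0.21).

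A list of 135 other ribosome biogenesis factors was read beside the set, of which 131 had a probe set and all of these were tested. With GW2580 119 of 131 read lower (90.8%, against 58.3% of all genes; median -0.26), none passed with limma, and 41 had an unadjusted p under 0.05 (31.3%, against 18.0% of all genes), 40 of them lower. With replicate 2 of the 2-week vehicle group left out, 112 were lower (median -0.24), and without replicate 1 of the GW2580 group 100 (median -0.15). In the first of these fits their share at an unadjusted p under 0.05 was close to that of all genes. The smallest p values were those of Ltv1, a small subunit maturation factor gene, at -0.65 (SE 0.12, limma adjusted p 0.0747) and Utp14a, a processome gene, at -0.71 (SE 0.15, limma adjusted p 0.0823). Ltv1 read 9.62 and 9.71 at 1 week, 9.91 and 9.90 in vehicle mice at 2 weeks, and 9.19 and 9.32 with GW2580. In Ltv1 the GW2580 arrays were the lowest and the 2-week vehicle arrays the highest, and the trended, robust fit called it (limma adjusted p 0.0483).

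From 1 to 2 weeks 88 of the 131 factors read higher and 43 lower (median 0.06), where 52.9% of all genes were higher. Of the 131, 1 rose and 1 fell, where 6.45% of all genes were called. Taf1b, for a subunit of the factor that recruits RNA polymerase I, rose by 0.87 (SE 0.18, limma adjusted p 0.0374), from 7.50 and 7.74 to 8.55 and 8.43. Noc3l fell by 0.73 (SE 0.13, limma adjusted p 0.0269), but differed by -0.095 when its probe sets were averaged. Neither passed when any of the 4 arrays compared was left out (limma adjusted p 0.0763 to 0.275 for Taf1b and 0.0875 to 0.167 for Noc3l). Against 1-week vehicle, GW2580 was lower for 113 of 131 factors (median -0.20) and none passed with limma, with 29 at an unadjusted p under 0.05 (22.1%, against 17.0% of all genes). Bysl and Pno1, both for small subunit factors, differed there by -0.66 and -0.54 (limma adjusted p 0.0684 and 0.102).

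Genes of the finished ribosome's own proteins had another pattern. Of 79 cytosolic ribosomal protein genes, 44 had a probe set of their own symbol and 43 were tested. Many of these genes have near-identical copies in the genome, so their probe sets are uncertain. From 1 to 2 weeks 41 of 43 read higher, against 52.9% of all genes, with a median of 0.19. Of the 43, 3 were called, all higher, where 3.74% of all genes were called higher and 6.45% in either direction. Rpl37, Rpl12 and Rps25 rose by 0.61, 1.00 and 0.66 (limma adjusted p 0.0348, 0.0372 and 0.0411). At an unadjusted p under 0.05 there were 7, all higher (16.3%, against 14.1% of all genes higher and 23.6% in either direction). Rpl37 and Rps25 passed in no fit that left out 1 of the 4 arrays compared (limma adjusted p 0.0752 to 0.252 and 0.0763 to 0.288). Rpl12 kept its call when replicate 2 of the 1-week group was left out, and not in the other 3 such fits (limma adjusted p 0.111 to 0.252). Between GW2580 and 2-week vehicle the median was -0.05, equal to that of all genes, while 40 of 43 were below 0 (93%, against 58.3% of all genes). Without replicate 1 of the GW2580 group 24 of 43 were below 0 (55.8%, against 53.9% of all genes). With all arrays no ribosomal protein gene passed with limma between GW2580 and 2-week vehicle, and 3 had an unadjusted p under 0.05 (6.98%, against 18.0% of all genes). Rpl12 differed by -1.11 (SE 0.21, limma adjusted p 0.0761, or 0.0446 with the trended, robust fit) and Rps25 by -0.71 (SE 0.15, limma adjusted p 0.0823). Between GW2580 and 1-week vehicle 38 of 43 were above 0 (median 0.13, with 45.8% of all genes above 0), where the ribosome biogenesis genes had a median of -0.27. The difference between these lists was not tested.

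Myc read 12.00 and 12.56 at 1 week, 13.16 and 13.36 in vehicle mice at 2 weeks, and 12.46 and 12.83 with GW2580. It rose by 0.98 (SE 0.21, limma adjusted p 0.0383) between the vehicle groups and differed by -0.62 (SE 0.21, limma adjusted p 0.193) with GW2580. For Myc 1 GW2580 array lay within the 1-week range and the other above it. For 22 of the 37 ribosome biogenesis genes (59.5%, against 27.9% of all genes) both lay below the gene's own 1-week range. The rise of Myc lost its call with replicate 1 of the 1-week group left out (limma adjusted p 0.264) and with either 2-week vehicle array left out (limma adjusted p 0.118 and 0.145).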

How the data were processed

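The authors deposited log2 expression values of 45101 probe sets on 6 arrays. Per the submitters' processing notes they were made with RMA, whose version and probe set definitions are not stated there. Because RMA quantile-normalises the arrays together, it hides any shift common to most genes. Depth is no property of arrays, and the number of arrays limits the precision.

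Without 64 control probe sets, 34945 had 1 symbol in the platform annotation, 932 several and 9160 none; 34741 matched RefSeq GRCm38.p6 by gene identifier, with 0 symbols changed. The brightest probe set was kept for each of 18193 genes, and 13090 genes with a mean of at least 4.97 (the 40th percentile) were tested. limma 3.58.1 (R 4.3.3, eBayes) fitted 3 group means over all arrays, with 3 residual and 4.97 prior degrees of freedom. Adjusted p values are Benjamini-Hochberg values from limma over the 13090 genes, with calls under 0.05, unless another fit is named. No permutation test was run, since 2 arrays against 2 allow a smallest two-sided p of 0.333. The script was tested on simulated data.

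The members and lists were chosen with earlier results of these data known. Values on every array are given for 8 members fixed by name, for the member with the smallest p of each role in the time and inhibitor comparisons, and for members with a clearly opposed probe set. From the other lists, called genes or those with the smallest p are named, and Myc. Alternatives covered the filter, the choice of probe set, scaling, variance model, block, arrays fitted and leaving out each array.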

Additional observations from a re-analysis of the deposited data

How the results depend on the processing

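The limits lie in 2 arrays a group and in arrays that differ within groups. No ribosome biogenesis gene was called in any comparison under the reported settings. From 1 to 2 weeks 1 was called under a stricter filter, with probe sets averaged and with a trended, robust fit (Odc1 in each), and 1 with only the 4 compared arrays fitted (Pes1). In time these fits called, in that order, 858 of 9822, 739 of 12189, 1011 of 13090 and 1059 of 13090 genes in all. The trended, robust fit called 1 member in the inhibitor comparison (Gnl3) and 1 between GW2580 and 1-week vehicle (Odc1). There it called 131 and 139 genes in all, against 48 and 67. No filter gave 74 genes in the inhibitor comparison. With only the 4 compared arrays, limma called 0 genes in the inhibitor comparison, with 2120 at an unadjusted p under 0.05, and 24 between GW2580 and 1-week vehicle. Deviations of same-numbered arrays correlated over genes at 0.002 between the vehicle groups and at 0.009 between the 2-week groups. Between 1-week vehicle and GW2580 they correlated at 0.292. A replicate block called 1 member from 1 to 2 weeks (Pes1), among 1223 of 13090 genes called. It called 154 genes in the inhibitor comparison and 182 between GW2580 and 1-week vehicle. The block also called Utp14a (adjusted p 0.0477), Rpl12 (0.0248) and Rps25 (0.0497) with GW2580, Utp14a (0.0305) in time and Rpl27a (0.0310) between GW2580 and 1-week vehicle. Among genes given on every array or named from the other lists, directions turned with probe sets averaged for Nop56 (-0.0581), Pes1 (-0.00207) and Heatr1 (-0.158) in time, for Polr1a (0.0328), Odc1 (0.121) and Noc3l (-0.0215) with GW2580, and for Polr1a (0.0447) and Nip7 (0.0352) between GW2580 and 1-week vehicle. At a common 75th percentile those of the same genes that turned were Nop56 (-0.0219) and Srm (-0.0193) in time and Odc1 (0.0121) with GW2580. Leaving out 1 array at a time gave 0 to 1059 called genes from 1 to 2 weeks, 0 to 167 with GW2580 and 0 to 169 between GW2580 and 1-week vehicle, and 0 to 1, 0 to 2 and no called members. The median member then ran from -0.411 to -0.201 with GW2580 and from -0.365 to -0.139 between GW2580 and 1-week vehicle. The median in time ran from -0.03 to 0.139. Among the same named genes, small differences changed sign without single arrays. In time these ran for Nop56 from -0.159 to 0.187, Rrp12 from -0.208 to 0.00238, Srm from -0.107 to 0.139, Heatr1 from -0.03 to 0.552, Nip7 from -0.00335 to 0.109 and Ncl from -0.122 to 0.0287. With GW2580 they ran for Odc1 from -0.183 to 0.155 and for Polr1b from -0.529 to 0.00462. Between GW2580 and 1-week vehicle they ran for Fbl from -0.0711 to 0.101, Npm1 from -0.0866 to 0.012, Polr1b from -0.167 to 0.367, Polr1a from -0.191 to 0.101, Imp3 from -0.236 to 0.193, Rpl12 from -0.398 to 0.192, Rps25 from -0.191 to 0.0907 and Pes1 from -0.271 to 0.206. Members not named here also turned, as the counts of lower members show. The cause of these changes was not tested. Counts of lower and non-overlapping members with an array left out, and the reading of other probe sets singly, were alternatives chosen after seeing the data.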
